A study of Zea mays with 9 samples.

Results

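Endosperm of the maize line ae wx was compared directly with endosperm of the line sh1. Its members were the 3 arrays labelled ae wx and the 3 labelled sh1, 6 of the 9 arrays measured, and all 17621 probe sets other than array controls. On an Affymetrix array a probe set is several short probes for the same transcript, summarised as 1 signal. Each array read total RNA from endosperm, the kernel tissue that stores starch, taken 15 days after pollination from field-grown plants and called a biological replicate. The remaining 3 arrays held the inbred line B73 and entered here through the shared estimate of error and as a level to read beside the others. Both mutant lines are described as inbreds, and all 9 samples shared tissue, age and field. No allele is given for ae, wx or sh1, and neither line is said to share a background with the other or with B73. Differences at the named loci and all other differences between the lines therefore cannot be told apart, and neither can less of a transcript and a sequence that binds the probes less well. Signals are in arbitrary units of the deposited table and are compared between lines, not between genes.

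Starch in endosperm is built from sucrose delivered by the mother plant. Sucrose synthase, encoded mainly by sh1 (shrunken1) in this tissue, cleaves sucrose, and ADP-glucose pyrophosphorylase, encoded by sh2 and bt2, makes the glucose donor that bt1 carries into the amyloplast. Starch synthases then extend the chains, the granule-bound synthase encoded by wx1 (waxy) makes amylose, and branching enzyme IIb, encoded by ae1 (amylose extender), adds branches. The other large sink of the tissue is zein, a family of storage proteins that are folded and packed in the endoplasmic reticulum.

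The arrays were alike in brightness, with median signals of 241.2 to 256, and several features of the 6 arrays bear on what follows. The labels do not say whether replicates came from separate ears, so p-values measure the spread between these samples, whatever its source. Replicates 2 and 3 of sh1 were the most alike pair (r = 0.998 across probe sets, with 0 identical values). Replicate 1 of sh1 lay more than 2-fold below both of the others for 76 of the 12414 probe sets tested and above both for 8. For the 3 ae wx arrays such counts were 0 to 10. Hybridisation controls, RNAs added in equal amount to every array, were 0.24 higher in ae wx than in sh1 on the log2 scale. Poly-A controls, a second set of array controls, were 0.29 higher. If the arrays are centred on the hybridisation controls, every difference below moves down by 0.24, and the median probe set moves from 0.004 to −0.23. The ratio of 3′ to 5′ signal, a sign of RNA quality, was 0.49 lower in ae wx for GAPDH, 0.22 higher for EF1a and within 0.05 for actin and cyclophilin (log2). The part of scaling and RNA quality in single results was not tested beyond the values given with them.

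Of the 12414 probe sets bright enough to test, 2213 (17.8%) were higher in ae wx and 2331 (18.8%) were lower, called by limma at an adjusted p under 0.05, which makes 4544 (36.6%) in all. Of these, 418 (3.37%) were at least 2-fold higher and 602 (4.85%) at least 2-fold lower. The fit shares its error with B73, whose replicates varied more than those of the mutant lines (median SD 0.18 against 0.07 in ae wx and 0.08 in sh1, log2). Fitted on the ae wx and sh1 arrays alone, the calls numbered 3265 higher and 3466 lower. Centring on the hybridisation controls gave 1058 higher and 4607 lower, so the balance of directions rests on the scaling. Quantile normalization and median centring tipped it slightly the other way, with 53.5% and 53.7% of calls higher against 48.7%. Gene names were available for 743 of the genes tested, and 276 of these (37.1%) were called, 136 (18.3%) higher and 140 (18.8%) lower, with 31 (4.17%) and 50 (6.73%) at least 2-fold. Those shares are the background for each gene list below, where a gene is represented by its brightest probe set.

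**Figure D1:**
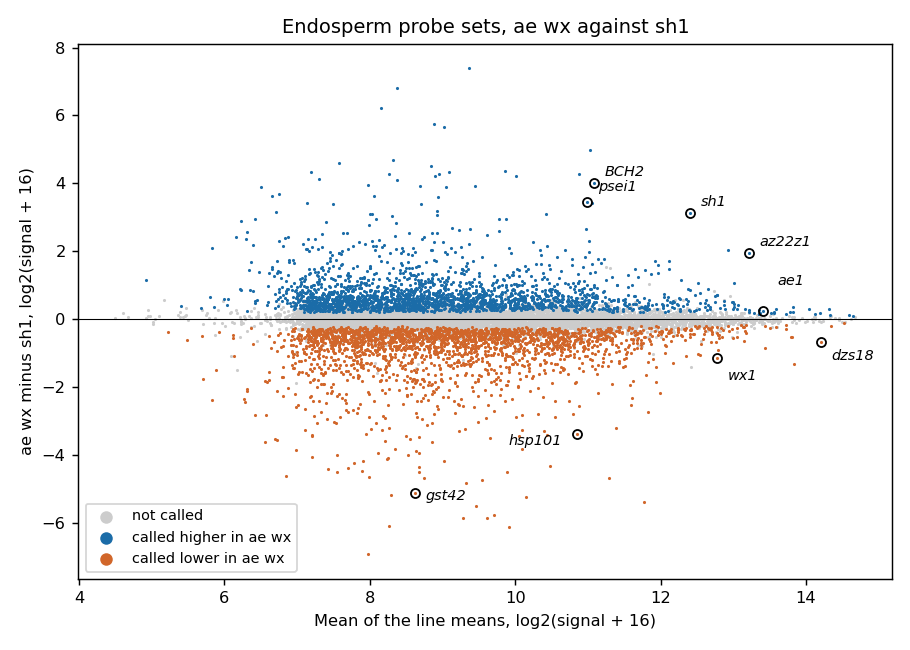
Difference between the line means (ae wx minus sh1) against their average for the 12414 probe sets tested, both on the log2(signal + 16) scale, with called probe sets in blue (higher in ae wx) and orange (lower) and 9 named genes circled. The 2213 higher and 2331 lower calls lie on both sides at all signal levels, sh1 sits at 3.12, wx1 at −1.13 and ae1 at 0.26.

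Of the 3 genes at the loci that name the lines, sh1 and wx1 were lower in the line carrying the name and ae1 was not. The sucrose synthase gene sh1 read 15910, 16149 and 15900 in ae wx and 1686, 1843 and 1965 in the sh1 line. The groups did not overlap, and the difference was 8.68-fold (3.12 ± 0.06 SE, log2, adjusted p = 6.89e-10). Its other probe sets gave larger differences. One read 11769, 12154 and 11220 against 329.5, 349.2 and 381.2 (4.99), and the other 1299, 1384 and 1303 against 51.5, 56.4 and 53.6. The sh1-line signals of that probe set were below the cut set by controls with no maize target, which makes it at least 10.1-fold. The waxy gene wx1, read by 1 probe set, gave 4156, 5666 and 4392 in ae wx and 9940, 10349 and 10706 in sh1. It was 2.20-fold lower in ae wx (−1.13 ± 0.10, adjusted p = 1.95e-05). B73 read 14314 ± 700.1 (SD, n = 3), above both lines. The amylose extender gene ae1 read 11774, 12085 and 11728 in ae wx and 10210, 9471 and 10062 in sh1. It was thus slightly higher in the line named for it (0.26 ± 0.06, adjusted p = 0.00863; other probe set 0.34, adjusted p = 0.0228), and with the hybridisation controls as the reference it was 0.02 (adjusted p = 0.874).

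Starch synthesis genes other than wx1 were mostly higher in ae wx than in sh1, by small amounts. Of 18 genes on the array 15 were bright enough to test, and 8 of them were higher, 2 lower and 5 not called, and their median was 0.27 against 0.004 for all probe sets (log2). With the hybridisation controls as the reference the counts were 4 higher and 3 lower, and the median 0.03, still 0.26 above that of all probe sets. The GAPDH ratio that moved between the lines is given above.

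Genes that make and carry ADP-glucose differed by 1.46-fold at most. The large subunit gene of ADP-glucose pyrophosphorylase, sh2, read 15147, 15669 and 14649 in ae wx and 12906, 13135 and 13399 in sh1 (0.20 ± 0.04, adjusted p = 0.00504), and against the hybridisation controls its sign turned (−0.03). Its partner, the small subunit gene bt2, read 11467, 11782 and 11117 against 9626, 9347 and 9598 (0.27 ± 0.06, adjusted p = 0.00616). Neither pair of groups overlapped, and both calls ended with the hybridisation controls as the reference. AGP2, another subunit gene of this enzyme, was 1.46-fold higher (adjusted p = 0.000661). The subunit genes Agpsemzm and AGPLS3 were not called, the first at 0.14 ± 0.07 and the second at −0.18 ± 0.12. The transporter gene bt1 passed at 0.31 ± 0.10 (adjusted p = 0.0411), but its call ended when any 1 array of either line was left out.

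Genes that build the chains showed the largest differences of the list. Starch branching enzyme I, sbe1, read 8562, 9288 and 8983 in ae wx and 6081, 5138 and 5261 in sh1, which is 1.63-fold higher (0.70 ± 0.11, adjusted p = 0.000676). Starch synthase I, ss1, read 8640, 9704 and 8785 against 6427, 6209 and 6102, 1.45-fold higher (adjusted p = 0.000407). The lines did not overlap for either gene. GBSSIIa, a second granule-bound synthase gene, was dim at 147 to 155.3 in ae wx and 93.3 to 104.3 in sh1, where no array was above the controls with no maize target. It was at least 1.26-fold higher in ae wx (adjusted p = 0.00185). Only the 3 ae wx arrays carried it past the filter on dim probe sets. Its p-value and its place among the higher starch genes therefore depend in part on that signal, although the call was kept with no filter. The synthase gene zSSIIa went the other way, with 4492, 3552 and 2771 against 8552, 6767 and 7341. That call (−1.08 ± 0.38, adjusted p = 0.0475) ended without any 1 array of either line, although the 6 signals did not overlap, and its B73 signals ran from 1225 to 4371. The debranching genes were not called, with the pullulanase gene zpu1 at 0.64 ± 0.26 and the isoamylase gene iso2 at 0.27 ± 0.13, and zSSIIb stood at 0.00 ± 0.09. The genes du1, iso3 and agpsl1 were too dim to test, with no signal in these lines above 83.6.

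**Figure D2:**
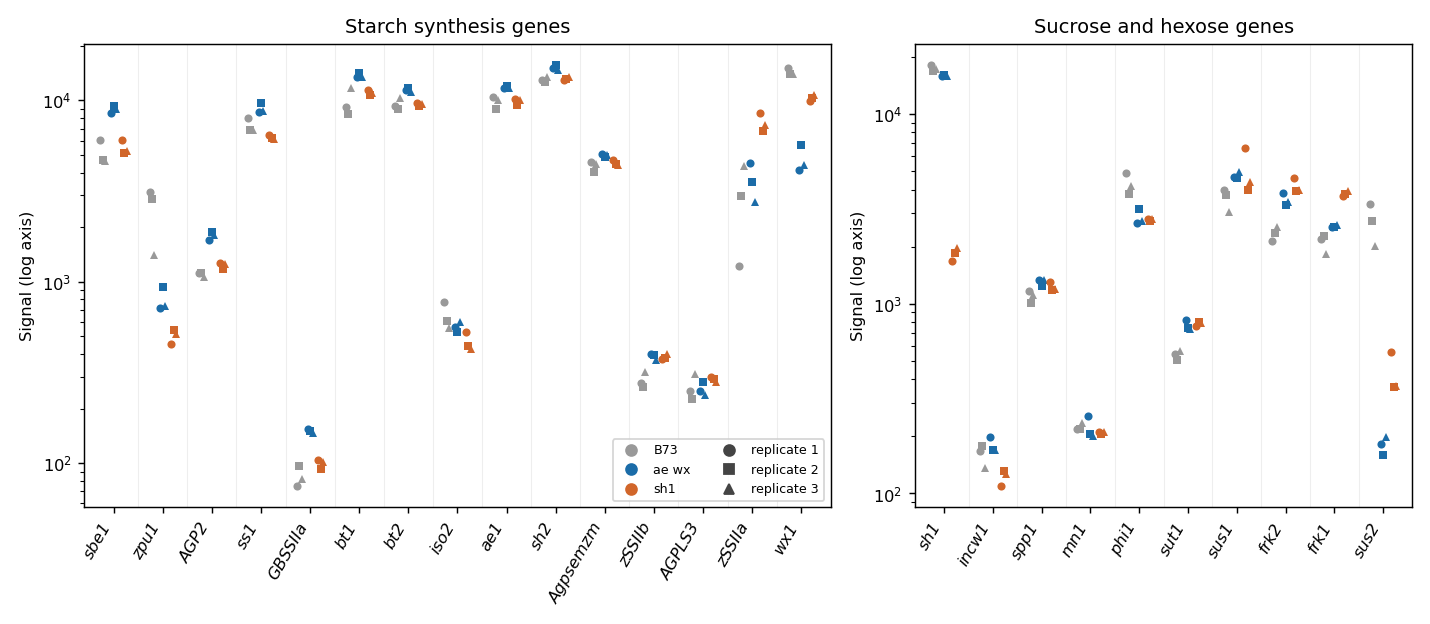
Signal on each array (log axis) for the 15 starch synthesis genes and 10 sucrose and hexose genes tested, in order of the difference, with B73 in grey, ae wx in blue, sh1 in orange and the marker shape giving the replicate. The sh1 gene reads 1686 to 1965 in the sh1 line against 15900 to 16149 in ae wx, wx1 is lower in ae wx, and most other starch genes are slightly higher in ae wx.

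Sucrose and hexose genes were called about as often as named genes in general, of which 18.3% were higher and 18.8% lower. Of 14 genes 10 were tested, with 2 higher (sh1 and incw1), 2 lower and 6 not called in ae wx, and the median was 0.003. The 3 sucrose synthase genes differed in direction. While sh1 was higher in ae wx, sus2 was lower, with 182.4, 160.5 and 198.9 against 556.5, 363.2 and 369.1 (2.23-fold, adjusted p = 0.00165), and B73 read 2699 ± 672 (SD, n = 3). The gene sus1 read 4632, 4607 and 4959 against 6642, 3999 and 4390, and these groups overlapped (−0.05 ± 0.17, adjusted p = 0.863). Replicate 1 of sh1 held the highest sh1-line signal of both sus1 and sus2. Fructokinase gene frk1, which acts on the fructose that sucrose synthase releases, was 1.48-fold lower in ae wx (2543 to 2608 against 3695 to 3945, adjusted p = 0.000911). The related frk2 was not called (−0.24 ± 0.10). Cell wall invertase gene incw1 was 1.41-fold higher but dim (168.6 to 199.6 against 109 to 131.6, adjusted p = 0.00802), and its call ended with the hybridisation controls as the reference. The invertase gene mn1, the sucrose transporter gene sut1, the sucrose phosphatase gene spp1 and the glucose phosphate isomerase gene phi1 lay between −0.03 and 0.09, with overlapping groups.

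Zein genes, which define this tissue, were bright on all 6 arrays. Of 8 tested, 2 were higher in ae wx, 2 lower and 4 not called. With the hybridisation controls as the reference 1 was higher, 6 lower and 1 not called. The median was −0.05, and the summed signal of the 8 was 118100 to 121000 in ae wx and 117300 to 122800 in sh1. The alpha zein gene az22z1 read 18578, 18867 and 18378 in ae wx and 5894, 4433 and 4193 in sh1, a 3.88-fold difference (1.96 ± 0.11, adjusted p = 5.23e-07). A second probe set of this gene gave 2.03. The alpha zein gene az19D1 was lower in ae wx, at 8786, 8099 and 7816 against 15423, 14828 and 14491 (1.81-fold, adjusted p = 1.99e-06). The remaining alpha zeins were not called on the deposited scale, where az22z3 stood at −0.01 ± 0.03, z1C1_20 at −0.10 ± 0.05 and az22z5 at −0.26 ± 0.12. Against the hybridisation controls all 3 were called lower (−0.25, −0.34 and −0.50). Alpha zein genes are near-identical copies, so a probe set may read several of them.

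The delta zein gene dzs18 was lower in ae wx by every probe set, but by very different amounts. Its brightest read 14860, 15501 and 14263 in ae wx and 23509, 23731 and 24222 in sh1 (1.60-fold, adjusted p = 1.82e-06). A further probe set read 630.2, 548.8 and 409.6 against 22119, 22634 and 22698, which is 41.9-fold, and the others gave −1.30 and −0.66 (log2). No single fold change can be given for this gene, since the probe sets share the name and not the size. Among gamma zeins, gz50 was 1.22-fold higher in ae wx (17871 to 19225 against 14950 to 15460, adjusted p = 0.000369), a call that ended with the hybridisation controls as the reference. The other gamma zein gene, gz27, stood at 22612 to 23090 in ae wx and 21670 to 22463 in sh1 (0.05 ± 0.03, adjusted p = 0.242). Its sign turned to −0.19 against the hybridisation controls, and its dimmest probe set gave −0.60. The deposited table holds no saturation flags, and whether such signals were at the top of the range was not tested.

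Regulators of endosperm included the bZIP gene o2 (opaque2), which activates alpha zein genes. Its probe sets disagreed. The brighter read 2063, 2187 and 1902 in ae wx and 6925, 7626 and 7733 in sh1, 3.60-fold lower in ae wx (−1.85 ± 0.09, adjusted p = 2.2e-07). The other read 3636, 4019 and 3930 against 3226, 4075 and 4346, which overlap (0.003 ± 0.14, adjusted p = 0.991). The o2 transcript is thus not shown to be lower as a whole. The gene ohp1, whose product pairs with that of o2, was 1.52-fold higher (1605, 1721 and 1626 against 1018, 1087 and 1129, adjusted p = 0.000556). Named after their values were seen, pbf1, the prolamin-box binding factor gene (0.55 ± 0.10, adjusted p = 0.00227), and ohp2 (0.36 ± 0.10, adjusted p = 0.0187) were higher as well. Both calls ended with the hybridisation controls as the reference (adjusted p = 0.0795 and 0.348), where ohp1 kept its call. Over the 19 regulators tested, 6 were higher, 4 lower and 9 not called, and with the hybridisation controls as the reference 3 were higher and 7 lower. The Polycomb gene mez1 (541.6 to 712.4 against 311 to 413, 1.60-fold) and the aleurone zinc finger gene Nkd1 (2568 to 2743 against 1457 to 1940, 1.58-fold) were higher. The DNA methyltransferase gene met5 was 1.63-fold lower (adjusted p = 0.0118), and its other probe sets gave −0.38 and −0.15.

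**Figure D3:**
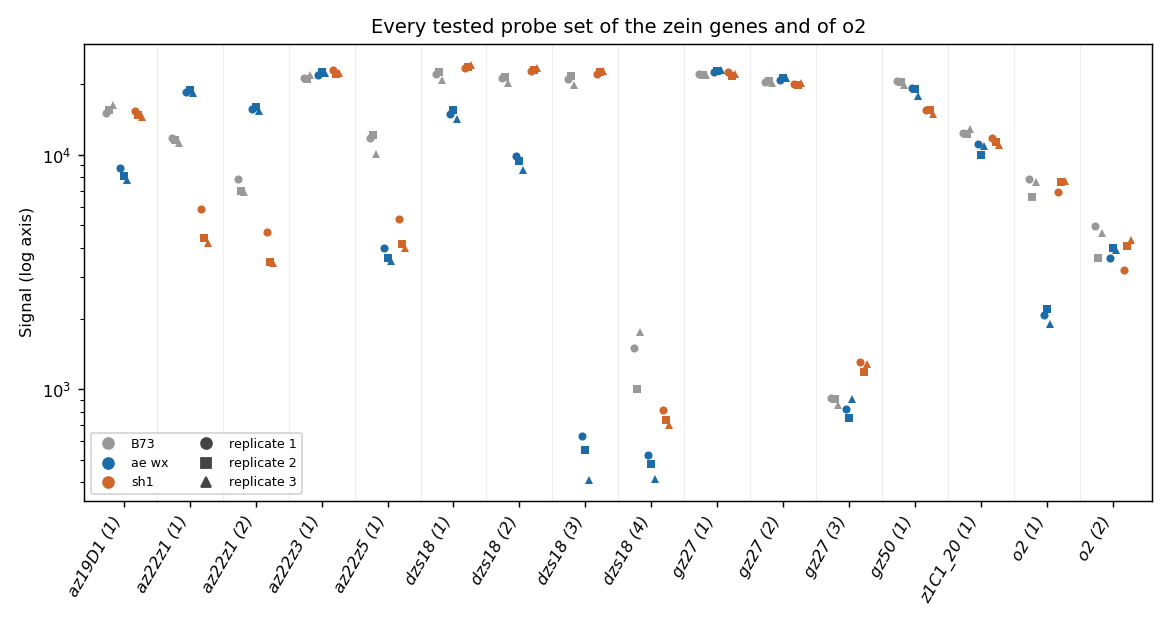
Signal on each array (log axis) for every tested probe set of the 8 zein genes and of o2, numbered within each gene, with B73 in grey, ae wx in blue, sh1 in orange and the marker shape giving the replicate. For dzs18 the third probe set reads 409.6 to 630.2 in ae wx against 22119 to 22698 in sh1 while the first differs 1.60-fold, and for o2 the first probe set differs 3.60-fold while the second overlaps.

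Genes for folding in the endoplasmic reticulum were lower in ae wx than in sh1. Among the 19 tested, 10 were lower and 0 higher, and 9 were not called. Their median difference was −0.40. Leaving out any 1 array of either line left 9 lower and none higher, while quantile normalization and median centring each gave 9 lower and 1 higher. Fitted on the ae wx and sh1 arrays alone, 12 were lower and 3 higher, and against the hybridisation controls 13 were lower and none higher. BiP, the main Hsp70 chaperone of this compartment, is encoded by bip1 and bip2. The first read 2833, 3116 and 3067 in ae wx and 5287, 6168 and 6594 in sh1 (1.99-fold lower, adjusted p = 2.67e-05), and the second 1504, 1363 and 1698 against 3754, 3857 and 4374 (2.61-fold lower, adjusted p = 1.25e-05). In both, every ae wx signal was below every sh1 signal. The protein disulfide isomerase gene pdi8 read 857, 877.7 and 810.5 against 1522, 2382 and 2467 (2.42-fold lower, adjusted p = 0.000333). The gene derlin1, of the export of misfolded proteins, read 1606, 1587 and 1491 against 2634, 3922 and 4062 (2.21-fold lower), and the calnexin gene CNX was 1.95-fold lower. B73 lay between the lines for these 5 genes, nearer to sh1 except for bip2. In pdi8 and derlin1, sh1 replicate 1 was the lowest sh1 array by a wide margin. Of the disulfide isomerase genes, pdi3, pdi4, pdi5 and pdi12, named after their values were seen, were among those not called (−0.12 to 0.14), and the uncalled genes of the whole list ran from −0.47 (pdi6) to 0.31 (pdi7).

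Heat shock protein genes were lower in ae wx too, and several varied widely within sh1. Of 10 genes 9 were tested, 6 were lower, none higher and 3 not called, and the median was −1.29. The disaggregase gene hsp101 read 488.7, 493.5 and 540.1 in ae wx and 2056, 8623 and 8806 in sh1, 10.3-fold lower (−3.37 ± 0.53, adjusted p = 0.000758). The small heat shock gene hsp18f read 778.9, 717.7 and 867.5 against 2749, 11726 and 12028 (9.12-fold lower, adjusted p = 0.000476). Replicates 2 and 3 of sh1 stood together, replicate 1 stood between them and ae wx, and the lines still did not overlap. Another small heat shock gene, hsp18a, read 1547, 1825 and 1984 against 3513, 12165 and 12189 (−2.17 ± 0.44, adjusted p = 0.00347).

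For the remaining small heat shock genes the result turned on sh1 replicate 1. The gene hsp18c read 2361, 2358 and 2264 in ae wx and 1443, 8605 and 8564 in sh1, so replicate 1 lay below ae wx and the gene was not called (adjusted p = 0.182). Without that array it was −1.88 (adjusted p = 2.83e-06). The call of hsp22 (2333, 2279 and 2245 against 3103, 8259 and 8667, 2.64-fold lower, adjusted p = 0.0138) ended without sh1 replicate 2 or 3 and with the pair counted as 1 sample. The gene hsp26, which the filter on dim probe sets removed and which is named after its values were seen, read 63.8, 52.6 and 63.3 in ae wx and 70.2, 4399 and 3541 in sh1. Counting replicates 2 and 3 as 1 sample left 5 heat shock genes lower, and leaving out replicate 1 gave 7 lower with a median of −1.88. Chaperonin genes varied less within sh1. CPN60I read 1191, 1215 and 1258 against 2484, 3276 and 3341 (2.44-fold lower, adjusted p = 0.000156), and CPN60II was 2.39-fold lower (adjusted p = 0.000443). The hsp70 genes hsp70-4 and hsp70-5 were not called (−0.08 ± 0.07 and −0.26 ± 0.11).

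**Figure D4:**
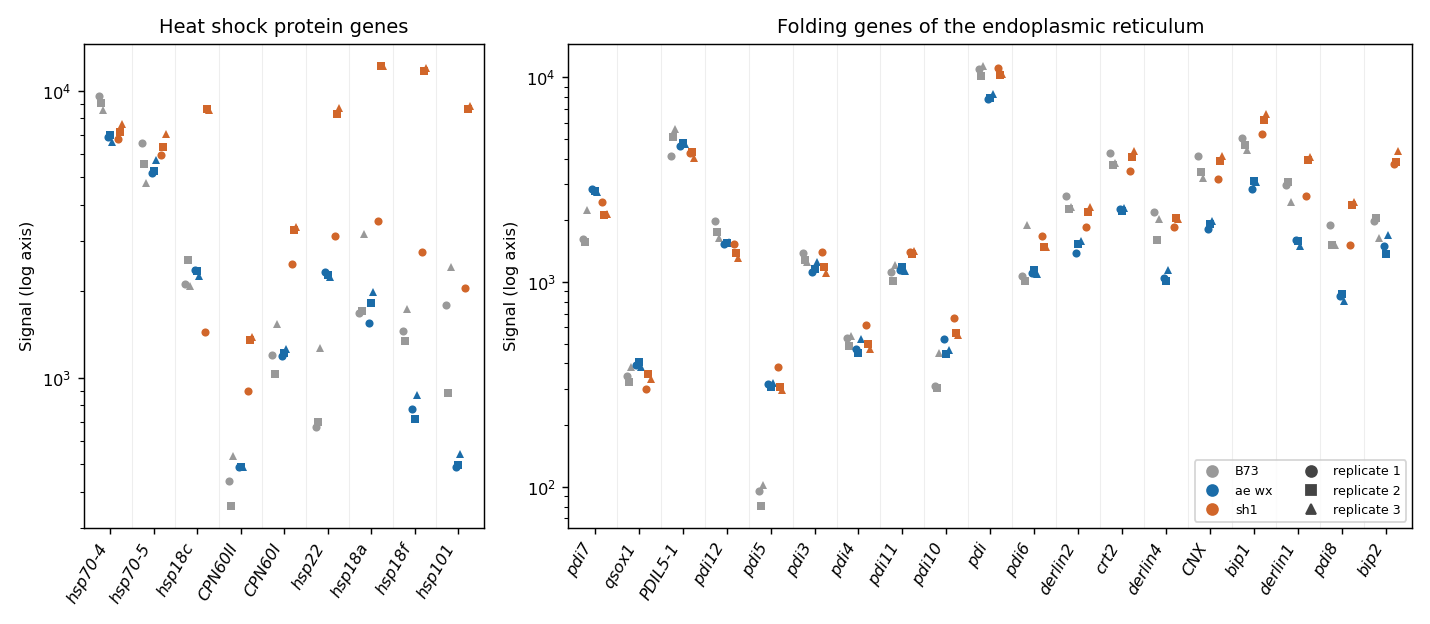
Signal on each array (log axis) for the 9 heat shock genes and the 19 folding genes of the endoplasmic reticulum tested, with B73 in grey, ae wx in blue, sh1 in orange and the marker shape giving the replicate. In sh1 the circle of replicate 1 lies far below the square and triangle for the small heat shock genes and hsp101 (2056 against 8623 and 8806), and less so for pdi8 and derlin1.

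The named genes with the largest higher signal in ae wx, besides sh1 and az22z1, came from pigment, defence and small-molecule metabolism. The beta-carotene hydroxylase gene BCH2, of carotenoid synthesis, read 8917, 8839 and 8436 in ae wx and 512.8, 526.4 and 529.8 in sh1, 16.2-fold higher (4.02 ± 0.07, adjusted p = 3.2e-10). The cystatin gene psei1, which encodes a cysteine protease inhibitor, read 6682, 6668 and 6797 against 562.4, 630.8 and 593.5 (11-fold higher, adjusted p = 3.7e-08). A further cystatin gene, cpi2, was 7.75-fold higher by its brightest probe set (adjusted p = 9.88e-08), and its 3 probe sets gave 2.014 to 2.955 (log2). The probe sets of both belong to 1 sequence cluster of the array design, so their signals may come in part from the same transcripts. The flavanone 3-hydroxylase gene f3h read 1134, 1131 and 1127 against 248.4, 177.8 and 137.8 (5.76-fold higher, adjusted p = 2.69e-06). PEAMT, a methyltransferase gene of choline synthesis, was 4.39-fold higher (1149 to 1384 against 265.2 to 285, adjusted p = 9.4e-08), and the phytol kinase gene VTE5 3.15-fold (3974 to 4350 against 1258 to 1349, adjusted p = 3.61e-07).

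Several of the large differences end at the lower limit of the array in sh1. The signals of nthr3 (600 to 729.8 in ae wx), MMT1, a methionine S-methyltransferase gene (306.9 to 348.2), acco20, an ethylene-forming oxidase gene (276.5 to 393.5), and cfm6 (213.3 to 285.9) were above controls with no maize target on all 3 ae wx arrays and on no sh1 array. They were at least 5.02-fold, 2.60-fold, 2.53-fold and 2.03-fold higher there than in sh1. Of these only acco20 was above the controls in B73 too, where it read 527.7 to 674.5, higher than in ae wx. The genes nthr3, MMT1 and cfm6 passed the filter on dim probe sets only through ae wx, the line where they were high. The beta expansin gene expB3 read 377.6, 300.9 and 283.9 against 72.2, 83.4 and 136 (1.60 ± 0.20), with 1 sh1 array above those controls. The adenine phosphoribosyltransferase gene aprt1 was 2.79-fold higher by 1 probe set and 1.13-fold by the other.

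Among the named genes with the largest lower signal in ae wx, redox, stress and water channel genes appeared beside hsp101, hsp18f and hsp18a. The glutathione S-transferase gene gst42 read 52.6, 53.6 and 41.5 in ae wx, within the range of controls that match no maize gene, and 1290, 2906 and 2885 in sh1. It was at least 17.4-fold lower (adjusted p = 5.51e-07). The aldehyde dehydrogenase gene rf2c was at least 3.47-fold lower (34.1 to 40.4 against 386.6 to 521.2), and an alternative oxidase gene, of a bypass in mitochondrial respiration, at least 3.81-fold (39.5 to 48.1 against 214.8, 673.8 and 720.3). RefSeq lists that gene under both aox1 and aox2, so which of them it is stays uncertain, and it is called aox2 here. The Cu/Zn superoxide dismutase gene Sod4A read 120.6, 139.3 and 136.6 against 995.6, 1191 and 1050, a 7.38-fold difference with 2 ae wx arrays above those controls (adjusted p = 4.13e-08). For gst42 and aox2, sh1 replicate 1 held less than the other replicates, and without it the differences were −5.49 and −3.58 on the log2 scale against −5.10 and −3.03 with it.

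Further genes with a large lower signal were lim1, at 475.4, 527.8 and 615.5 against 3855, 4115 and 4048 (7.28-fold lower, adjusted p = 4.34e-06), and GP, at least 4.56-fold lower. The gene mtl2 was 4.87-fold lower and tip4d, a water channel gene of the vacuolar membrane, 4.13-fold. The related tip3a read 195, 163.4 and 175.3 against 952.6, 1350 and 1347 (6.29-fold lower, adjusted p = 0.00271), and B73 was higher than both but varied widely (11622, 12089 and 2378). The wound-induced protease inhibitor gene wip1 read 337.7, 323.1 and 260 against 1084, 2200 and 2478 (5.68-fold lower, adjusted p = 0.000985). The pyruvate decarboxylase gene pdc2, which acts when oxygen is short, read 567.3, 530.7 and 663.2 against 2544, 3246 and 3066 (4.92-fold lower, adjusted p = 1.39e-06), and its other probe sets gave −0.79 to −1.89.

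Redox and defence genes were read as lists beside the shares over all named genes, 18.3% higher and 18.8% lower. Of 16 alternative oxidase and redox genes tested, 8 were lower and 1 higher, and their median was −0.23. With any 1 array of either line left out, 6 to 8 were lower and 1 higher. Besides those above, nrx1, a nucleoredoxin gene, read 1627, 1738 and 1629 against 5788, 5913 and 6038 (3.53-fold lower, adjusted p = 3.59e-07), and the catalase gene cat2 was at least 2.67-fold lower. However, cat2 would not have passed the filter on dim probe sets without sh1, the line where it was high. Of 14 defence, wound and protease inhibitor genes, 7 were higher and 2 lower (median 0.29), and 5 were higher and 3 lower with the hybridisation controls as the reference. With any 1 array of either line left out, 5 to 7 were higher and 2 lower. The higher ones included psei1 and cpi2, which may read in part the same transcripts, and opr5, an oxophytodienoate reductase gene (1.59-fold, adjusted p = 0.00116). The lower ones were wip1 and the pathogenesis-related gene prp2 (2083 to 2309 against 4053 to 4619, adjusted p = 7.4e-05). Of 19 glutathione S-transferase genes 6 were higher and 2, gst42 and gst31, lower (4 and 4 against the hybridisation controls). Among the higher ones, gst23 passed the filter on dim probe sets only through ae wx, and gst10 would not have passed it without ae wx. The count of higher genes therefore depends in part on their being high there. Without single arrays of either line 4 to 6 were higher and 2 lower. The gene gst31 was 2.60-fold lower by its brightest probe set (adjusted p = 4.24e-05) and −0.94 to −1.61 by its others, while gst37 was 2.82-fold higher (adjusted p = 6.44e-05). Median differences of this list turned from 0.20 to −0.04 with the hybridisation controls as the reference.

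Primary metabolism outside starch held calls in both directions, as did named genes in general (18.3% higher and 18.8% lower). Of 17 genes of glycolysis and low oxygen metabolism, 2 were higher, 3 lower and 12 not called (0 higher and 6 lower against the hybridisation controls). Besides pdc2, the lower ones were the glyceraldehyde-3-phosphate dehydrogenase gene GPC1 (5357 to 5670 against 8419 to 9192, 1.58-fold, adjusted p = 5.07e-05) and the hemoglobin gene Hb (1.83-fold, adjusted p = 4.07e-05). The 2 higher ones were adh1 and Ppdk1, at 0.19 and 0.15, and both calls ended without single arrays and turned sign (−0.05 and −0.08) with the hybridisation controls as the reference. The 4 probe sets of Ppdk1 ran from −0.43 to 0.15, so Ppdk1 is not shown to be higher as a whole. In amino acid and nitrogen metabolism, 17 genes were tested, of which 5 were higher and 2 lower. This count rested on the scaling and on single arrays, with 2 higher and 6 lower against the hybridisation controls, and 2 higher and 1 lower without ae wx replicate 2 or 3 or sh1 replicate 2 or 3. Without ae wx replicate 1 it was 3 higher and 1 lower. The glutamine synthetase gene gln5 was 2.09-fold higher (314.6 to 352.5 against 132.3 to 169.2, adjusted p = 0.000492), and the S-adenosylmethionine synthase gene sam2 1.38-fold lower (6024 to 6148 against 8260 to 8455, adjusted p = 0.000153). The lysine-degrading gene lkrsdh1 read 907, 1076 and 892 against 2389, 2458 and 2854, but its call (adjusted p = 0.0379) ended without any 1 array of either line. Of 4 lipid genes the elongase gene fae1 was lower (2.04-fold, adjusted p = 1.64e-05).

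Genes of growth were read as ribosomal, cell cycle and cell wall lists beside the shares over all named genes, 18.3% higher and 18.8% lower. Of 19 ribosomal protein genes 1 was called, RPS21, at 961.2, 961.5 and 856.5 against 3502, 3465 and 3382 (3.68-fold lower, adjusted p = 0.0003). The other 18 had adjusted p-values of 0.273 to 0.932. In the fit on the ae wx and sh1 arrays alone, without the spread of B73, 3 were higher and 3 lower, and against the hybridisation controls 0 were higher and 4 lower. Of 18 cell cycle, replication and histone genes, 2 were higher and 1 lower, against 4 higher and 5 lower in the fit on these lines alone and 0 higher and 3 lower against the hybridisation controls. Named after its values were seen, pcna2, of the sliding clamp of DNA replication, read 1499, 1515 and 1585 in ae wx and 2180, 2302 and 2415 in sh1, which do not overlap. It was not called with B73 in the fit (adjusted p = 0.197), where the B73 arrays ran from 344 to 1105, and was called without B73 (adjusted p = 6.75e-05). The origin recognition gene orc1 was 1.35-fold higher (adjusted p = 0.0028) and lost its call against the hybridisation controls, and the calls of his1 and MCM6 ended without single arrays. Of 21 cell wall genes 4 were higher and 3 lower, and against the hybridisation controls 3 were higher and 8 lower. The xyloglucan endotransglycosylase gene xet1 was 2.59-fold higher (472.4 to 583.7 against 140 to 275.7, adjusted p = 0.00053), and expB7 1.64-fold. The alpha expansin gene expA4 was lower by 3 probe sets that differed in size (−1.90, −2.52 and −0.31), and the cellulose synthase gene cesa2 was lower by −0.59 ± 0.12 (adjusted p = 0.00406).

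**Figure D5:**
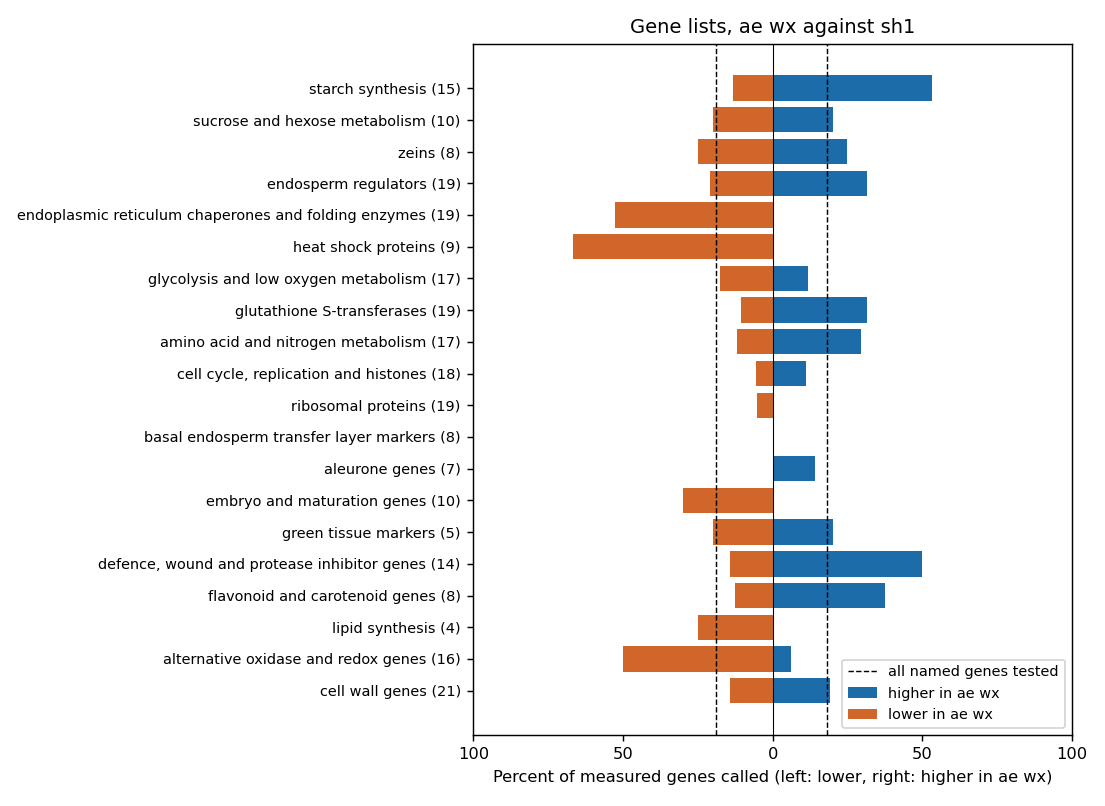
Percent of the measured genes of each list called higher (right, blue) or lower (left, orange) in ae wx than in sh1, with the number measured in brackets, for the lists with at least 4 measured genes. Dashed lines mark the shares over all 743 named genes tested, 18.3% higher and 18.8% lower. On the deposited scale starch synthesis and defence lie furthest right, and heat shock, folding in the endoplasmic reticulum and redox genes furthest left.

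Markers of other parts of the kernel showed where the dissected tissue could have varied. Fewer cells of a type and less RNA per cell cannot be told apart in such bulk samples. None of 8 tested markers of the basal transfer layer, which faces maternal tissue, was called. With the replicate block 1 was lower, and against the hybridisation controls 3 were. Leaving out ae wx replicate 1 made 2 of them lower and moved the median from −0.08 to −0.35. Their summed signal, over 13 genes on the array, was 8526 in ae wx replicate 1 and 7922 in sh1 replicate 1. On the other 4 arrays of these lines it was 5117 to 6432, so the first array of each mutant line stood higher. In B73 the sums were lower, at 3320, 3485 and 3799, and replicate 1 was the lowest. Named after its values were seen, meg2 read 2085, 362.2 and 383.2 in ae wx and 1475, 704 and 611 in sh1. Among 7 aleurone genes Nkd1 alone was called, and the median of the list was −0.02. The summed signal was 5749 to 5888 against 4584 to 5333, and Nkd1 (2568 to 2743 against 1457 to 1940) was part of it. The sum is thus not a reading apart from Nkd1. Of 10 embryo and maturation genes 3 were lower (tip3a, dhn2 and the oleosin gene ole1) and none higher. The summed signal of the 12 such genes on the array, tested or not, was 26640 to 27640 in ae wx and 28320 to 30280 in sh1. The calls of dhn2 and ole1 ended without single arrays, although the other probe sets of dhn2, a dehydrin gene, gave −2.23 and −2.42. Of 14 green tissue markers 5 were bright enough to test, with me3 higher and PSBQ lower, and no marker of these lists was at 0 on all arrays. The part of such tissue in the differences above was not tested.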

How the data were processed

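RNA of 9 endosperm samples was hybridised to Affymetrix maize arrays, 1 array per sample. The deposited values are signal intensities on a linear scale, 1 per probe set and array, used as deposited. GCOS 1.4 is named in the submitters' processing notes without a role. The summary algorithm, scaling and masks were not given in the sources used here, and the table has no detection calls. limma 3.58.1, run in R 4.3.3, tested log2(signal + 16) (lmFit, 1 mean per line over 9 arrays, eBayes with intensity trend, two-sided, Benjamini-Hochberg over all probe sets that passed the filter), and called at an adjusted p under 0.05. The filter asked for a signal of 20% of the array's 2% trimmed mean (124.6 to 136.7) or more on at least 3 arrays and removed 5207 of 17621. A probe set bright in 1 line alone passed only through that line, so its call depends in part on being high there. Trimmed means differed by 9.72% between arrays, under the 10% set for normalizing. A line was above controls when its signal exceeded the mean plus 2 SD of 23 control probe sets with no maize target (100.4 to 141.5). Where it was not on any array, the control level replaced it and the fold is a lower bound. Precision is limited by the 3 arrays per line. Fold changes are on the log2(signal + 16) scale, which understates low genes.

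The platform annotation names 1 gene for 1452 probe sets, several for 1 and none for 16168. Entrez identifiers of 1377 were found in RefSeq's gene table (assembly Zm-B73-REFERENCE-NAM-5.0), used for names only. The gene lists, 21 in number, were set as name patterns and then resolved by hand to identifiers, and a gene was left out of a list that it matched only by a symbol shared with an unrelated gene. The members and lists were chosen with earlier results of these data known. Named genes are those of the loci, the 15 highest and 15 lowest called genes without overlap, up to 5 called genes per list (or the 2 brightest), all tested starch, sucrose, zein and heat shock genes, and 5 unnamed probe sets each way, and a few are only counted in their list. A gene among the lowest is not reported here. The fit was also run on simulated data. Those arrays were drawn independently, so they cannot show how the fit handles the likeness of sh1 replicates 2 and 3. Alternatives covered pseudocounts of 1 and 64, no filter, scaling, arrays entered, the trend, the replicate block, sh1 replicates 2 and 3 as 1 sample and each array left out. Centring on hybridisation controls was chosen after seeing the data. Python 3.11.15 and matplotlib 3.10.9 drew the figures.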

Additional observations from a re-analysis of the deposited data

How the results depend on the processing

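With centring on hybridisation controls, probe sets higher in ae wx numbered 1058 and lower 4607, of which 277 and 910 were at least 2-fold, ae1 was 0.021 (adjusted p = 0.874), and sh2 (−0.034), adh1 (−0.045), Ppdk1 (−0.084) and gz27 (−0.188, adjusted p = 0.0368) reversed. The cause of the lower hybridisation controls in sh1 was not tested. Leaving out 1 array at a time gave 1616 to 2762 higher and 1715 to 2873 lower, and 399 to 428 and 562 to 637 at least 2-fold. Over these fits wx1, ae1 and sh1 kept their calls. The labels do not say whether replicate numbers pair the lines. Over all probe sets tested, deviations of same-numbered ae wx and sh1 arrays correlated at −0.094 to 0.053, and an effect shared by fewer genes was not tested. With a replicate block 1938 were higher and 2082 lower. With sh1 replicates 2 and 3 averaged the counts were 1654 and 1738, and with no filter 2606 and 2593 of 17621. Of the 110 genes named by rule, 89 were called, 71 of them under every alternative and 77 under every one but the hybridisation controls. Signals near the controls with no maize target limit what can be said of dim genes.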

Other observations

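The largest differences between the lines belonged to probe sets that the annotation does not name. On the higher side, Zm.6779.2.S1_a_at read 8742, 7734 and 9130 in ae wx and 29.2, 41.1 and 35.1 in sh1, at least 64.2-fold. Zm.14765.1.A1_at was at least 26.4-fold higher, Zm.9832.1.A1_at at least 18.4-fold and Zm.16259.3.A1_a_at at least 25.6-fold. B73 lay between the lines for these 4, nearer to ae wx. Zm.14705.1.S1_at differed from them, since it read 3308, 3568 and 4073 in ae wx, 53.1 to 59.7 in sh1 and 53.9 to 57.6 in B73, at least 27.5-fold higher in ae wx than in sh1.

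On the lower side, Zm.15394.1.S1_at read 110.5, 102.9 and 84.4 in ae wx and 6724, 8508 and 8789 in sh1, at least 62.1-fold lower, with B73 at 6437. Zm.14845.1.S1_at was at least 21.6-fold lower. Zm.15899.3.A1_at read 83.6 to 89.5 in ae wx, 5760 to 6068 in sh1 and 29 to 34.4 in B73, at least 46.4-fold lower in ae wx than in sh1. Zm.2306.1.A1_at was likewise bright in sh1 alone (2435 to 2539) and at least 19.6-fold lower in ae wx, and Zm.12352.1.S1_at read 64.6, 119.4 and 28.5 against 3917, 4829 and 4715. The arrays of the lines did not overlap for any of these 10 probe sets. However, Zm.14705.1.S1_at passed the filter on dim probe sets only through ae wx. Zm.15899.3.A1_at, Zm.2306.1.A1_at and Zm.12352.1.S1_at passed it only through sh1.

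Probe sets of the same gene often did not give the same size of difference. Of 137 named genes with more than 1 probe set tested, 14 had probe sets more than 1 apart on the log2 scale. Besides dzs18, expA4, dhn2, sh1, o2, pdc2 and aprt1, these included genes named after their values were seen. The probe sets of glct1 ran from −2.88 to 0.87, those of sir from −1.46 to 1.07, and those of EF1-A from −2.51 to −0.06. For such genes 1 probe set does not stand for the transcript, and whether the probes of these genes match the alleles of both lines was not tested.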
